A study of Homo sapiens with 9 samples.

Results

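The SLC2A genes encode the GLUT family, membrane proteins most of which let glucose and related sugars or polyols cross the membrane down their concentration gradient. Here 10 of them were followed, SLC2A1, SLC2A3, SLC2A4, SLC2A14, SLC2A9, SLC2A6, SLC2A8, SLC2A10, SLC2A12 and SLC2A13. They were chosen by name, as all array probes whose transcript accession RefSeq gives to one of these symbols, which gave 14 of 58201 probes and 10 of 22439 symbols on the arrays. Among 47753 gene names tested, a gene was represented by its probe with the highest mean log2 intensity.

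Glucose uptake is the entry step of glycolysis, and cancer cells at low oxygen usually take up more glucose than they do in air. The hypoxia-inducible factor HIF-1, a dimer of HIF-1α and ARNT, binds hypoxia response elements in DNA, and SLC2A1 and SLC2A3 are textbook target genes. SLC2A1 to SLC2A4 and SLC2A14 form class I of the family, SLC2A9 belongs to class II with the fructose and urate transporters, and SLC2A6, SLC2A8, SLC2A10, SLC2A12 and the proton-coupled myo-inositol transporter SLC2A13 form class III.

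The study ran these arrays to find pathways under control of the transcription factor GATA3 and HIF-1α at low oxygen. The cells were OEC-M1, a cell line from head and neck squamous cell carcinoma. Cells received a non-targeting control siRNA (si-Control), siRNA against GATA3 (GATA3 knockdown) or siRNA against HIF-1α (HIF-1α knockdown). Transfection lasted 72 h, and all 3 groups spent 18 h at 1% O2, so no normoxic array entered the comparison. Each group had 3 single-colour Agilent arrays, and the study's legends name 1 siRNA sequence per target for the array experiment.

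The 9 arrays lay on 3 slides, each slide carrying 1 array of every group under the same replicate number. A group always occupied the same position of its slide, so slide position and group cannot be told apart. The median spot intensity ran from 992.5 to 3560, and between 73.3% and 88.0% of spots were well above background. The dimmest array was si-Control replicate 3, which correlated with the other control arrays at r=0.934 and r=0.961 against r=0.982 between those. For 13 of the 14 SLC2A probes it gave the highest or the lowest of the 3 control values. Of 3 values all but the middle value meet this, and several of these probes correlate with each other. The share over all probes was not counted, so the 13 cannot be called particular to the family. The changes against si-Control are also given without this array, except for SLC2A4 and SLC2A12, which lay near background. Si-Control replicate 3 correlated with GATA3 knockdown replicate 3, of the same slide, at r=0.985. With HIF-1α knockdown replicate 3, also of that slide, it correlated at r=0.946. Its correlations with the knockdown arrays of the other slides ran from r=0.927 to r=0.970. A fit without si-Control replicate 3 keeps the knockdown arrays of slide 3, so it is not balanced over slides. Whether its values reflect the array or the slide was not tested. Of 11 epithelial and squamous markers, 9 were well above background on every array and KRT5 was on none. Their summed log2 intensity ran from 19.74 to 20.40 in si-Control, from 19.20 to 19.95 in GATA3 knockdown and from 19.84 to 20.37 in HIF-1α knockdown. Of the markers of other cells, 2 of 6 fibroblast, 3 of 4 measured immune and 3 of 4 endothelial genes were also well above background on every array, with 2 fibroblast genes, COL3A1 and LUM, on none. Of 5 adipocyte and striated muscle genes, 2 were well above background on every array. In GATA3 knockdown all 11 epithelial log2 fold changes were below 0, from -0.79 to -0.23, although KRT19 was the only one that passed the threshold used below, at -0.72 (SE 0.27). The fibroblast gene DCN was lower there at -1.08 (SE 0.37), and the muscle gene MYH7 was higher, at a mean log2 intensity of 10.37 against 8.82 in si-Control. The summed log2 intensity of the adipocyte and muscle list ran from 11.41 to 11.83 in si-Control, from 11.21 to 12.71 in GATA3 knockdown and from 10.52 to 11.61 in HIF-1α knockdown. In HIF-1α knockdown 8 of the 11 epithelial log2 fold changes were above 0 and none passed. The part of these genes in the results below was not tested. GATA3 itself lay between 10.71 and 11.48 in si-Control and between 9.48 and 10.40 in GATA3 knockdown, a log2 fold change of -1.27 (SE 0.34, adjusted P=1). HIF1A lay between 16.24 and 17.24 in si-Control and between 14.13 and 14.59 in HIF-1α knockdown, a log2 fold change of -2.32 (SE 0.35, adjusted P=0.295), and both targets passed the unadjusted threshold used below.

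In HIF-1α knockdown 2 of the 10 members were lower at the unadjusted limma P of 0.05 that the study used (to pass means to meet this threshold), SLC2A3 and SLC2A14, and none was higher. In GATA3 knockdown none of the 10 passed, although 1 additional probe, the dimmer of the pair for SLC2A6, was higher. In GATA3 knockdown against HIF-1α knockdown 1 of 10 passed, SLC2A10, which was lower in GATA3 knockdown. These counts are to be read against all genes tested, of which 2.97% passed in GATA3 knockdown, 5.23% in HIF-1α knockdown (3.28% as lower genes) and 12% between the knockdowns (6.93% higher and 5.05% lower in GATA3 knockdown). Here and below, all genes include names without a RefSeq symbol and genes near background. The share over symbols alone, or over genes well above background, was not counted. No member passed after Benjamini-Hochberg adjustment over all genes, where 0% of genes passed in GATA3 knockdown, 0% in HIF-1α knockdown and 0.00422% between the knockdowns. Counted by probe, 1 of 14 passed in GATA3 knockdown, as a higher probe, where 3.14% of all probes passed and 1.77% did so as higher. In HIF-1α knockdown 3 of 14 passed, all lower, against 5.33% of all probes (3.43% as lower). These were the probes of SLC2A3 and SLC2A14, near-duplicate genes whose signals cannot be told apart here. The brighter SLC2A3 probe and the SLC2A14 probe correlated at r=0.992 over the 9 arrays. Neither the 3 probes nor the 2 members can therefore be counted as independent. Between the knockdowns 2 of 14 passed, against 12.3% of all probes. The median log2 fold change of the 10 members was -0.23 under GATA3 knockdown and -0.27 under HIF-1α knockdown, beside -0.02 and -0.01 over all genes. The medians of the members include SLC2A4 and SLC2A12, which lay near background. The arrays are not stated to come from separate cultures, so the P values of these tests measure the spread between arrays, which may be technical.

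**Figure D1:**
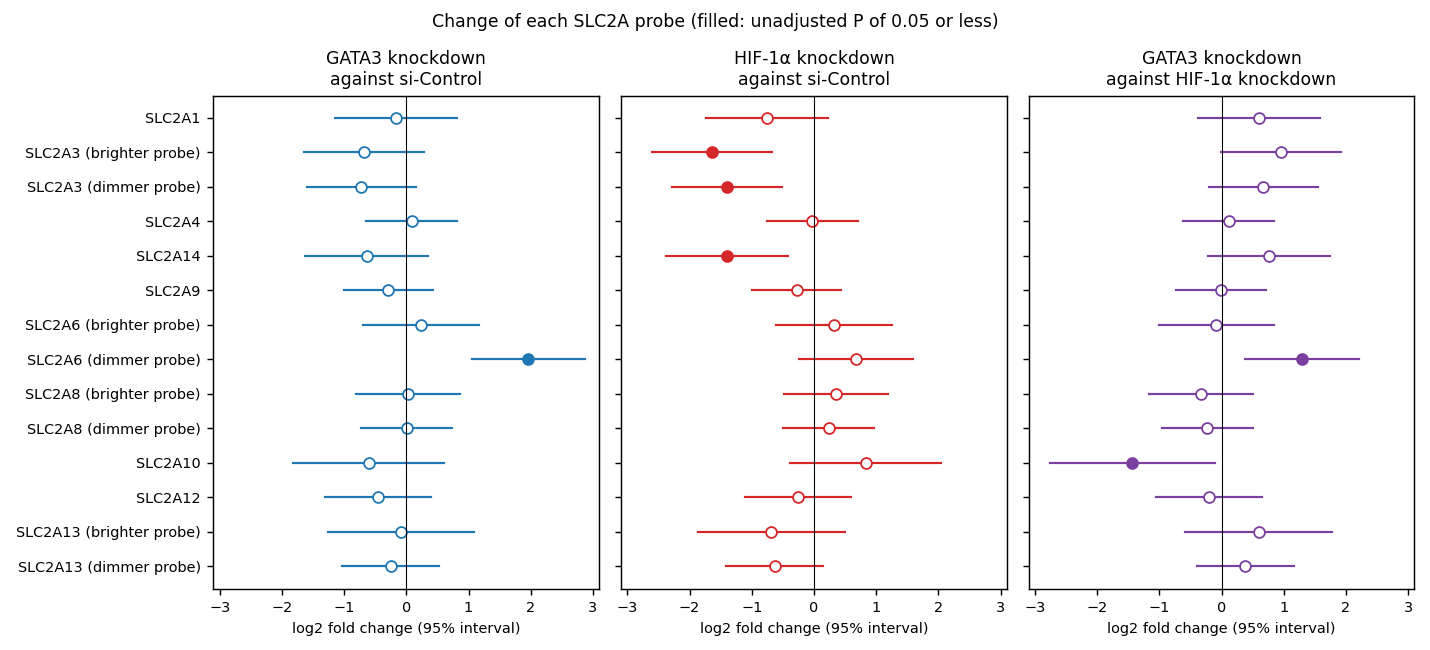
Log2 fold change of each of the 14 SLC2A probes (points) with its 95% interval (lines) in the 3 comparisons, with filled points at an unadjusted limma P of 0.05 or less. Both SLC2A3 probes and the SLC2A14 probe lie left of 0 in HIF-1α knockdown, and the dimmer SLC2A6 probe lies right of 0 in GATA3 knockdown.

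SLC2A1 (GLUT1), the basal glucose transporter of most cells and a standard marker of tumour glucose uptake, is shown with its promoter because it is the family's best known HIF-1 target. The window holds 250 bases before and 50 bases after the RefSeq start on the minus strand, GRCh38.p14 chr1:42958819-42959118, with the core of a hypoxia response element (the letters CGTG with A or G before them, on either strand) in capitals.
SLC2A1 promoter: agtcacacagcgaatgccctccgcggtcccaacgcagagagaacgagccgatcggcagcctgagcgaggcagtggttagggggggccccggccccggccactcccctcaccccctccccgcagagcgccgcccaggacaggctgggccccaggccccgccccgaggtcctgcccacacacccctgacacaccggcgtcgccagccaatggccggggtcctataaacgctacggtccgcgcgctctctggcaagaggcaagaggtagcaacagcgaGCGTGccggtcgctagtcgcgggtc
The single match, GCGTG, began at position 26 after the start.

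SLC2A1 was well above background on every array. Its log2 intensity was 15.05, 15.86 and 16.81 on si-Control replicates 1 to 3. It was 15.80, 15.21 and 16.22 in GATA3 knockdown and 14.84, 15.08 and 15.52 in HIF-1α knockdown. The HIF-1α knockdown arrays lay toward the low end but overlapped the controls, because si-Control replicate 1 was lower than 2 of them. HIF-1α knockdown changed it by -0.76 on the log2 scale (SE 0.44, 95% interval -1.74 to 0.22, adjusted P=0.823), which did not pass. Within slides 1, 2 and 3 the HIF-1α knockdown array was lower by a log2 difference of -0.21, -0.78 and -1.29. With the slide as a block the same change passed (SE 0.31), and without si-Control replicate 1 it was -1.19 and passed. Without si-Control replicate 3 it was -0.31 and with array brightness in the fit it was -0.18. All 21 alternatives gave a lower level, and 2 of them passed. In some of them, such as the slide block or the removal of a GATA3 knockdown array, the estimate cannot move. In GATA3 knockdown the log2 fold change was -0.16 (SE 0.44, 95% interval -1.15 to 0.82), which did not pass. The slides did not run one way here, with differences of 0.75, -0.65 and -0.60, and without si-Control replicate 3 the change was 0.29.

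SLC2A3 (GLUT3), a transporter of high glucose affinity best known from neurons, was the member with the clearest difference. On its brighter probe the log2 intensity was 13.28, 13.75 and 14.26 in si-Control and 11.99, 11.82 and 12.58 in HIF-1α knockdown. All 3 HIF-1α knockdown arrays lay below all 3 control arrays. The log2 fold change was -1.63 (SE 0.43, 95% interval -2.60 to -0.67), a 3.1-fold lower intensity (adjusted P=0.716). The dimmer probe of the same transcript gave 12.53, 13.04 and 13.39 in si-Control and 11.68, 11.27 and 11.82 in HIF-1α knockdown. It too separated the groups, with a log2 fold change of -1.40 (SE 0.39, adjusted P=0.762). Within slides 1, 2 and 3 the brighter probe was lower by -1.29, -1.93 and -1.68 on the log2 scale. The call held in all 21 alternatives, with values from -1.87 to -1.19, and the change was -1.38 without si-Control replicate 3. In some alternatives, such as the slide block or the removal of a GATA3 knockdown array, the estimate cannot move.

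In GATA3 knockdown the brighter SLC2A3 probe gave 13.37, 12.14 and 13.74. Replicate 2 alone lay below the control range, and the other two lay within it. The log2 fold change was -0.68 (SE 0.43, 95% interval -1.64 to 0.28), which did not pass, and it was -0.43 without si-Control replicate 3. The slide differences were 0.09, -1.61 and -0.52. The dimmer probe gave 12.53, 11.39 and 12.88 and a log2 fold change of -0.72 (SE 0.39), which did not pass, and which passed with the slide as a block or without GATA3 knockdown replicate 3. Without GATA3 knockdown replicate 3 the brighter probe passed, at -1.01. The group means thus ran from si-Control (13.76 ± 0.49, SD, n=3) through GATA3 knockdown (13.08 ± 0.84) to HIF-1α knockdown (12.13 ± 0.40), and the neighbours in that order overlapped. GATA3 knockdown lay above HIF-1α knockdown by a log2 difference of 0.95 (SE 0.43, 95% interval -0.01 to 1.92, adjusted P=0.419). This missed the threshold, and it passed with the slide as a block and in 4 of the 9 fits that left out 1 array. By RT-PCR, another assay, the study reported significantly lower SLC2A1 and SLC2A3 transcripts in hypoxic OEC-M1 cells after GATA3 knockdown. It also reported less SLC2A1 protein there. On these arrays the 95% intervals of both genes in GATA3 knockdown hold no change as well as a lower level.

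SLC2A14 (GLUT14) is a near-duplicate of SLC2A3 in the genome. The RefSeq gene table of GRCh38.p14 places both on chromosome 12 with 3 genes between them, of which 0 are protein coding. The probe sequences were not used here, so signal of one gene on the probe of the other cannot be told apart from its own. Its promoter is shown because it was the other member that passed, at GRCh38.p14 chr12:7872866-7873165 on the minus strand, with the same core in capitals.
SLC2A14 promoter: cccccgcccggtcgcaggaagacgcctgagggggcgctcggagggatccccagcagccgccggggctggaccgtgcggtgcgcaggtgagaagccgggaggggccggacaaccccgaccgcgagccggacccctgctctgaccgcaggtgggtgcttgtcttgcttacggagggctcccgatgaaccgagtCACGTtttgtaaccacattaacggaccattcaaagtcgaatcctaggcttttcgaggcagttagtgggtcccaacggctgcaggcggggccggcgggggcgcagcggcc
The single match was ACGTG read on the opposite strand, beginning at position -59 from the start.

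The SLC2A14 probe gave a log2 intensity of 13.88, 14.37 and 14.93 in si-Control, 14.00, 12.76 and 14.50 in GATA3 knockdown, and 12.86, 12.79 and 13.34 in HIF-1α knockdown. All HIF-1α knockdown arrays lay below all control arrays, while GATA3 knockdown overlapped both. HIF-1α knockdown lowered it by a log2 fold change of -1.40 (SE 0.44, 95% interval -2.38 to -0.41), or 2.64-fold lower (adjusted P=0.823). Slides 1, 2 and 3 gave -1.03, -1.57 and -1.60. The call held in all 21 alternatives, with values from -1.65 to -0.92, and the change was -1.13 without si-Control replicate 3. Here too some alternatives cannot move the estimate. In GATA3 knockdown the log2 fold change was -0.64 (SE 0.44, adjusted P=1), and it passed only without GATA3 knockdown replicate 3, at -1.01. Without si-Control replicate 3 it was -0.37. GATA3 knockdown exceeded HIF-1α knockdown by 0.76 (SE 0.44, adjusted P=0.46), which did not pass, although it did with the slide as a block and without GATA3 knockdown replicate 2, at 1.26. Over the 9 arrays, which share slides and groups, the log2 intensity of SLC2A14 and of the brighter SLC2A3 probe correlated at r=0.992, close to r=0.986 between the 2 probes of SLC2A3.

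Whether SLC2A3 changed more than SLC2A1 was tested on the difference between their log2 intensities on the same array, a comparison added after the values were seen. SLC2A3 minus SLC2A1 was -1.77, -2.11 and -2.55 in si-Control and -2.85, -3.26 and -2.94 in HIF-1α knockdown. Every HIF-1α knockdown array lay below every control array, and the means differed by -0.87. An exact two-sided permutation test gave P=0.1, the smallest value that 3 against 3 arrays allow. It shuffled the arrays of both groups without regard to slide. At this floor, and chosen after the values were seen, it cannot decide whether SLC2A3 changed more. In GATA3 knockdown the difference was -2.44, -3.07 and -2.48, which overlapped si-Control (means differing by -0.52, exact permutation P=0.3).

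**Figure D2:**
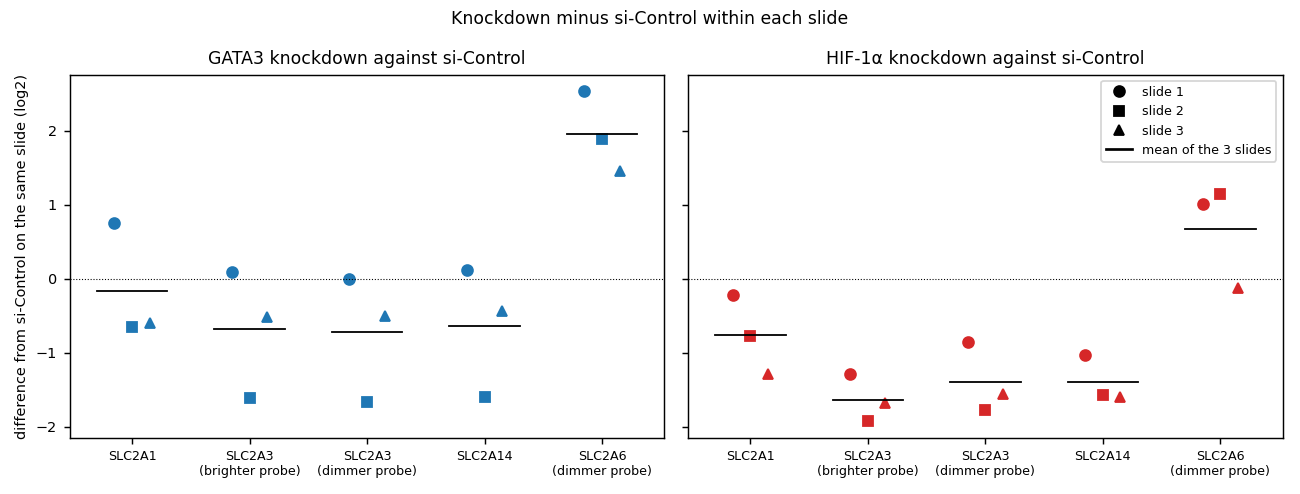
Difference in log2 intensity between each knockdown array and the si-Control array of the same slide (points, 1 per slide) and the mean of the 3 slides (bars). The HIF-1α knockdown points of SLC2A1, SLC2A3 and SLC2A14 all lie below 0, and the GATA3 knockdown points of the dimmer SLC2A6 probe run from 1.45 to 2.54.

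SLC2A4 (GLUT4), the insulin-responsive transporter of muscle and fat, was near the limit of the arrays. It was well above background on 2 si-Control arrays, on 0 GATA3 knockdown arrays and on 1 HIF-1α knockdown array. Its log2 intensity ran from 7.38 to 8.56 over the 9 arrays with all groups overlapping. SLC2A9 (GLUT9), a urate transporter, was well above background on every array. It gave 11.56, 10.60 and 11.55 in si-Control, 10.89, 10.67 and 11.29 in GATA3 knockdown, and 10.89, 10.71 and 11.28 in HIF-1α knockdown. The knockdown arrays of each slide were nearly equal, and the log2 fold changes were -0.29 (95% interval -1.01 to 0.43) in GATA3 knockdown and -0.28 (95% interval -0.998 to 0.437) in HIF-1α knockdown. Without si-Control replicate 3 they were -0.13 and -0.12. The direct difference between the knockdowns was -0.01 (95% interval -0.73 to 0.71).

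**Figure D3:**
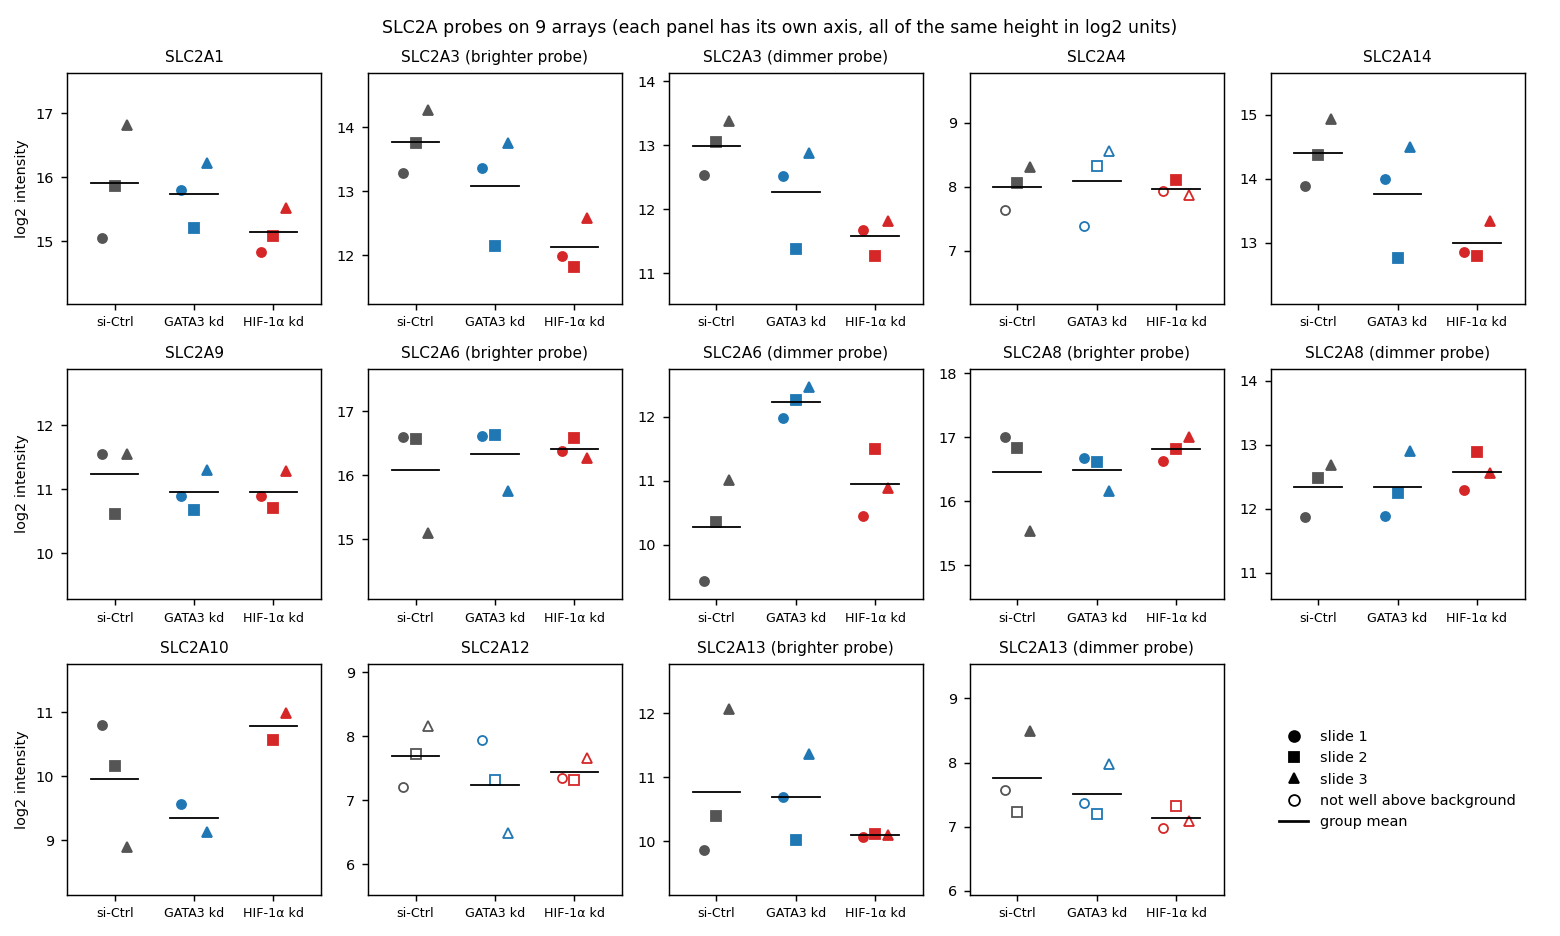
Log2 intensity of the 14 SLC2A probes on the 9 arrays by group, with the slide as marker shape, the group mean as a bar and open markers where a spot was not well above background. In HIF-1α knockdown the SLC2A3 and SLC2A14 points sit below all control points, and on the dimmer SLC2A6 probe the GATA3 knockdown points, from 11.97 to 12.46, sit above all others.

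SLC2A6 (GLUT6), a class III transporter of the lysosomal membrane, had 2 probes for the same transcript that disagreed. Its promoter is shown because the dimmer probe gave the only difference of the family in GATA3 knockdown at this threshold, and it lies at GRCh38.p14 chr9:133479050-133479349 on the minus strand.
SLC2A6 promoter: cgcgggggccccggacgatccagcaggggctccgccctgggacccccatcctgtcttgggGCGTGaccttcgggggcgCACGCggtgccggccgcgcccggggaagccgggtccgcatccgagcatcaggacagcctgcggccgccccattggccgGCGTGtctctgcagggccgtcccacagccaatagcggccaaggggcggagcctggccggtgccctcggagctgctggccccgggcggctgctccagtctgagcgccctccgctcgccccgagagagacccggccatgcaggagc
It held 3 matches to the core in capitals, of which the middle one, GCGTG, was read on the opposite strand.

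The dimmer SLC2A6 probe was well above background on every array. Its log2 intensity was 9.43, 10.36 and 11.01 in si-Control and 11.97, 12.26 and 12.46 in GATA3 knockdown. All GATA3 knockdown arrays lay above all control arrays. The log2 fold change was 1.96 (SE 0.41, 95% interval 1.05 to 2.88), a 3.9-fold higher intensity (adjusted P=1). Slides 1, 2 and 3 gave 2.54, 1.90 and 1.45. The call held when each array was left out in turn, with values from 1.54 to 2.33 (the highest without si-Control replicate 3), and with 75th percentile scaling, at 2.08. In HIF-1α knockdown this probe gave 10.44, 11.50 and 10.88, which overlapped si-Control (log2 fold change 0.68, SE 0.41, adjusted P=0.828), and without si-Control replicate 3 the change was 1.05 and passed. GATA3 knockdown exceeded HIF-1α knockdown by 1.29 (SE 0.41, adjusted P=0.342) with no overlap. The brighter probe showed none of this. It gave 16.59, 16.57 and 15.10 in si-Control, 16.61, 16.62 and 15.75 in GATA3 knockdown, and 16.37, 16.58 and 16.28 in HIF-1α knockdown. Its log2 fold change was 0.24 (95% interval -0.69 to 1.17) in GATA3 knockdown and 0.32 (95% interval -0.61 to 1.25) in HIF-1α knockdown. Both turned direction without si-Control replicate 3, to -0.26 and -0.17. Over the 9 arrays the 2 probes correlated at r=-0.148. As the brighter probe stood for the gene, SLC2A6 did not pass in the count of members, and with the mean of both probes it passed in GATA3 knockdown. What each probe detects was not tested.

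SLC2A8 (GLUT8), an intracellular transporter of class III, was well above background on every array with both probes. The brighter probe gave 17.00, 16.84 and 15.54 in si-Control, 16.68, 16.62 and 16.16 in GATA3 knockdown, and 16.63, 16.81 and 17.00 in HIF-1α knockdown. The low control value was on si-Control replicate 3, and the groups overlapped. Its log2 fold changes were 0.02 (95% interval -0.81 to 0.86) in GATA3 knockdown and 0.35 (95% interval -0.48 to 1.19) in HIF-1α knockdown. Without si-Control replicate 3 both turned direction, to -0.44 and -0.11, and neither passed. The log2 fold changes of the dimmer probe were 0.01 (95% interval -0.73 to 0.74) in GATA3 knockdown and 0.24 (95% interval -0.50 to 0.97) in HIF-1α knockdown, and without that array 0.17 and 0.40.

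SLC2A10 (GLUT10), the transporter whose loss causes arterial tortuosity syndrome, passed between the knockdowns as 1 of the 10 members. Of all genes 12% passed there. SLC2A10 was measured on 7 arrays, since its spots were marked non-uniform and dropped on GATA3 knockdown replicate 2 and HIF-1α knockdown replicate 1. The log2 intensity was 10.79, 10.16 and 8.90 in si-Control, 9.57 and 9.13 in GATA3 knockdown, and 10.57 and 10.99 in HIF-1α knockdown. Both knockdowns overlapped the wide control range but not each other, with only 2 arrays measured in each. The direct log2 difference was -1.43 (SE 0.57, 95% interval -2.76 to -0.10, adjusted P=0.406). With the non-uniform spots kept it was -1.10 and still passed, and with 75th percentile scaling (-1.77) or the authors' log2 table (-1.35) it no longer passed. Leaving out si-Control replicate 2, GATA3 knockdown replicate 1 or 3, or HIF-1α knockdown replicate 2 or 3 ended the call, and the fit with array brightness gave -0.66 and passed. Against si-Control the log2 fold changes were -0.60 (SE 0.52) after GATA3 knockdown and 0.83 (SE 0.52) after HIF-1α knockdown, and neither passed. Without si-Control replicate 3 the first became -1.13 and passed and the second became 0.31, and without si-Control replicate 1 the second became 1.25 and passed.

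SLC2A12 (GLUT12) was not well above background on any of the 9 arrays, so its values carry no direction. SLC2A13 was well above background on every array with its brighter probe, at 9.86, 10.40 and 12.08 in si-Control, 10.69, 10.02 and 11.37 in GATA3 knockdown, and 10.07, 10.12 and 10.10 in HIF-1α knockdown. The HIF-1α knockdown arrays were close to each other and inside the control range, whose top was si-Control replicate 3. The log2 fold changes were -0.09 (95% interval -1.27 to 1.09) and -0.68 (95% interval -1.86 to 0.50). Without si-Control replicate 3 they became 0.56 and -0.03, so the first turned direction and the second rested on that array. The dimmer SLC2A13 probe was well above background on 1 si-Control array alone.

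Promoter windows were at hand for 8 of the 10 members, with SLC2A3 and SLC2A4 not among them. A hypoxia response element core was found in a window of 6 of the 8 members, and it occurred in 48.4% of all 35116 promoter windows of 300 bases. The GATA recognition letters (GATA with A or T before and A or G after, on either strand) occurred in 25% of all windows and in 1 of the 8 members, SLC2A12. A match in such a window is a description and no evidence of binding.

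Genes around glucose uptake were taken from fixed lists, chosen with earlier results of these data known. Of 17 measured genes of later glycolysis and lactate export, 9 were lower in HIF-1α knockdown, where 3.28% of all genes were, and 0 were higher, with a median log2 fold change of -0.74. ENO2, a neuron-type enolase, was lower by -2.50 (SE 0.58). PFKFB4, which sets fructose 2,6-bisphosphate, was lower by -2.34 (SE 0.50). ALDOC, an aldolase, was lower by -1.84 (SE 0.30) and PDK1, which inhibits pyruvate dehydrogenase, by -1.78 (SE 0.39). In GATA3 knockdown 1 of the 17 was lower, the phosphoglycerate mutase PGAM1, at -0.51 (SE 0.23), beside 2.97% of all genes that passed, and the median was 0.13. Between the knockdowns 11 of the 17 were higher in GATA3 knockdown, beside 6.93% of all genes.

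Among 10 hexokinases and glucose-6-phosphatases, which add and remove the phosphate that traps glucose in the cell, 3 were lower in HIF-1α knockdown, beside the same 3.28%. HK2 was lower by -1.50 (SE 0.39), HK1 by -1.01 (SE 0.45) and HKDC1 by -0.95 (SE 0.30). None of the 10 passed in GATA3 knockdown. When the knockdowns were compared directly, those 3 were higher in GATA3 knockdown, beside 6.93% of all genes. Of 12 measured other hexose transporters, among them SLC2A5, SLC2A7 and SLC2A11, none passed in either knockdown. Between the knockdowns 1 of them passed, SLC2A2, which was well above background on 1 of 9 arrays, beside 12% of all genes that passed. Of 20 genes of transporter traffic and turnover, none passed in GATA3 knockdown and 1 was lower in HIF-1α knockdown, SNX27, a retromer adaptor that recycles SLC2A1, at -0.80 (SE 0.31). One gene of 20 is close to the 5.23% of all genes that passed there. Between the knockdowns 3 of the 20 were higher in GATA3 knockdown, SNX27, RAB13 and the arrestin-domain gene ARRDC4, the last by 1.47 (SE 0.56), beside 6.93% of all genes that were higher. Of 15 transcription factors of glucose uptake, HIF3A was lower in GATA3 knockdown at -0.71 (SE 0.27) and HIF1A in HIF-1α knockdown, as the target, so 1 of 15 passed in each, beside 2.97% and 5.23% of all genes. Between the knockdowns 3 of the 15 were higher in GATA3 knockdown, beside 6.93% of all genes. They were HIF1A, the target of the other siRNA, its partner ARNT (0.85, SE 0.37) and USF1 (1.07, SE 0.39). No gene of the 5 lists passed after adjustment.

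**Figure D4:**
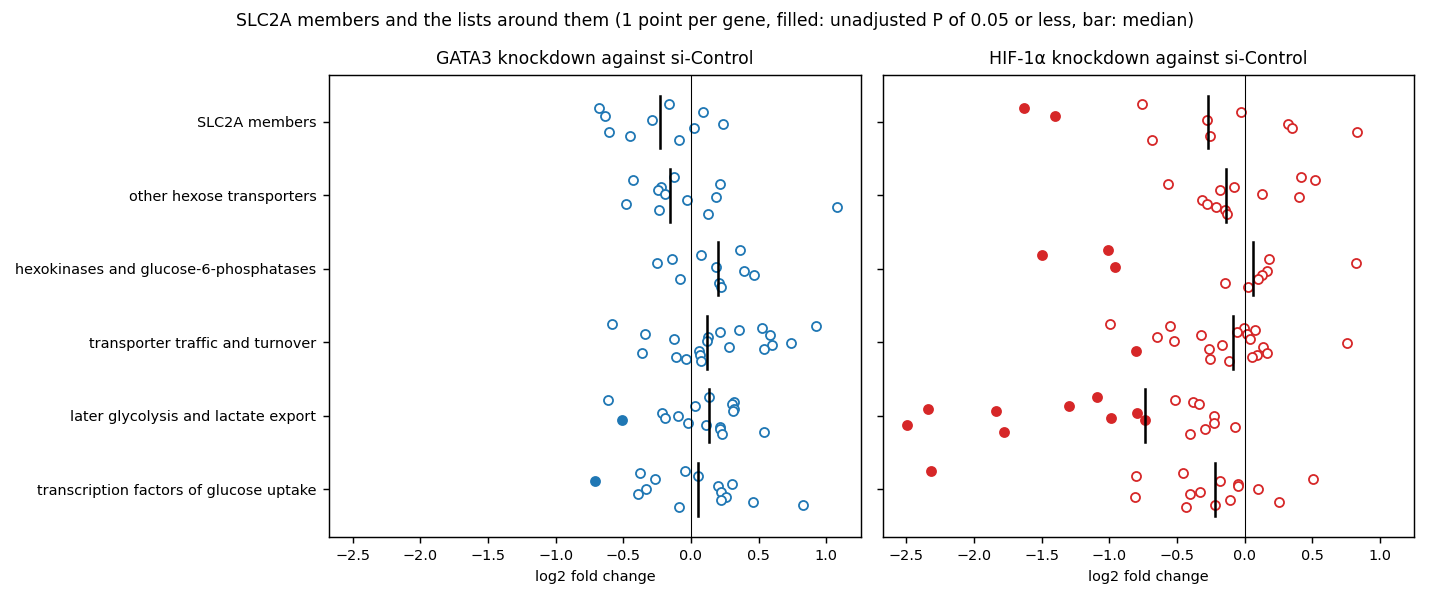
Log2 fold change of the 10 SLC2A members and of the genes in 5 lists around them (points, 1 per gene, filled at an unadjusted limma P of 0.05 or less) with list medians (bars). In HIF-1α knockdown all 17 genes of later glycolysis and lactate export lie left of 0, while the SLC2A members lie on both sides.

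The genes most like SLC2A1 in log2 intensity over the 9 arrays, among 15685 symbols well above background on all arrays, were RMND1, UHRF2, RNF7, PLOD1 and DSG2, with r from 0.982 to 0.989. Their log2 fold changes in HIF-1α knockdown ran from -0.78 to -0.53. For SLC2A3 they were SLC2A14, PARP3, PTPRR, CT47A11 and COQ8A, with r from 0.965 to 0.992 and log2 fold changes from -1.40 to -0.85. The arrays share slides, groups and brightness, so these values describe the 9 arrays alone. Within the family SLC2A1 and the brighter SLC2A3 probe correlated at r=0.853, SLC2A1 and the brighter SLC2A8 probe at r=-0.785, and the brighter SLC2A8 and SLC2A13 probes at r=-0.929.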

How the data were processed

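Expression was measured on 9 single-colour Agilent arrays of OEC-M1 cells, 3 per group. Per the labels, Agilent Feature Extraction 10.5.1.1 read the images, and the deposited scanner files give each spot's median intensity and local background on a linear scale. The authors also deposited a log2 table of processed signals, scaled per array to the 75th percentile (at least 99.8% of its values lay within 0.001 of that reading), with unknown rounding. The design annotation named hg19, and no coordinate on that build was used.

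Non-uniform spots were set to missing, as the study's methods state. Intensities were background corrected (normexp, offset 50) and quantile normalized without control spots, and spots of a probe were averaged, in R 4.3.3 with limma 3.58.1. Of 58201 probes 31104 matched a RefSeq symbol. One limma fit over all 47753 gene names held the 3 groups. The threshold was the study's unadjusted two-sided P of 0.05, with Benjamini-Hochberg adjusted P over all genes beside it, and a second fit covered all probes. The scripts were tested on simulated data. The number of arrays limits precision, and for SLC2A4, SLC2A12 and the dimmer SLC2A13 probe so does signal near background.

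The members and lists were chosen with earlier results of these data known. Named were all members and probes, the 5 genes most correlated with SLC2A1 and SLC2A3, at most 4 genes per list and comparison with the largest change past the threshold, and both siRNA targets. Scan headers put same-numbered arrays on 1 slide, so the numbers pair the arrays. Deviations from group means correlated between same-numbered arrays at r=0.234 to 0.724 (si-Control and GATA3 knockdown), 0.0866 to 0.623 (si-Control and HIF-1α knockdown) and -0.192 to 0.346 (between knockdowns). Between arrays of different numbers the ranges, in the same order, were -0.682 to 0.471, -0.582 to 0.42 and -0.417 to 0.335. The ranges overlap, so the slides paired the arrays only in part. Scaling, background correction, dim-probe filter, probe choice, slide block, groups in the fit, empirical Bayes settings, array brightness and each array's removal were varied.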

Additional observations from a re-analysis of the deposited data

How the results depend on the processing

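Other processing choices, and 1 added after the data were seen in which the least bright probe stood for a gene, were run for each count. In GATA3 knockdown the count of members, 0, became 1 with 75th percentile scaling and with the authors' log2 table (SLC2A12), and 1 with the mean of a gene's probes and with the least bright probe (SLC2A6). It ran from 0 to 2 when 1 array was left out, with 1 without si-Control replicate 3 (SLC2A10) and 2 without GATA3 knockdown replicate 3 (SLC2A3 and SLC2A14). The count of probes, 1, became 2 with 75th percentile scaling and 2 with the replicate block, and ran from 1 to 4 with 1 array left out.

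In HIF-1α knockdown the count of members, 2, became 0 at an adjusted P of 0.05 and was 3 with the replicate block, which added SLC2A1. It ran from 2 to 4 with 1 array left out, with 4 without si-Control replicate 1 (SLC2A1 and SLC2A10 added). The count of probes, 3, was 4 with the replicate block and ran from 3 to 6.

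Between the knockdowns the count of members, 1, became 0 with 75th percentile scaling, the authors' log2 table or an adjusted P of 0.05, 2 with the mean of a gene's probes or the least bright probe, and 3 with the replicate block (SLC2A3 and SLC2A14 added). It ran from 0 to 3 with 1 array left out. The count of probes, 2, became 1 with 75th percentile scaling and 4 with the replicate block, and ran from 1 to 5.

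Over 30 member and comparison pairs, 48 of 624 fits gave the opposite sign, in 18 pairs, and in 4 of these fits the change passed in 1 of the directions. Some of the 624 fits, such as those without an array outside the comparison, cannot move the estimate, so their sign was fixed. SLC2A12, not well above background on any array, went from -0.45 to 1.38 with 75th percentile scaling and 1.36 with the authors' log2 table in GATA3 knockdown. SLC2A6 between the knockdowns went from -0.08 to 0.60 with the mean of its probes and 1.29 with the least bright probe. The cause was not tested, other than that the last 2 rest on the other probe by construction. Of the other fits of single members, 15 gained a call and 7 lost one, 8 moved by more than 1 SD without a call, and 590 kept their call and direction or, where neither value was called, stayed within 1 SD. The replicate block changed no other call of a member. SLC2A4, SLC2A12 and the dimmer SLC2A13 probe lie too near background to show a change.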
